A study of Mus musculus and Homo sapiens with 30 samples.

Results

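The 10 genes described here encode carriers that move amino acids other than cystine across the plasma membrane of mouse cells: Slc7a5, Slc7a6, Slc43a1, Slc1a4, Slc1a5, Slc38a1, Slc38a2, Slc6a9, Slc7a1 and Slc7a3. They were chosen by name, with earlier results of these data known. Of these genes, 10 of 10 were matched to 1 row each of a count table with 56980 Ensembl gene IDs. Expression was measured by sequencing of poly(A) RNA in 18 libraries of 2 mouse lines, E0771, a mammary cancer line, and NMuMG, a line of mammary gland epithelium that the labels also list under breast cancer. Each line had 3 replicates in each of 3 media. After 36 h of growth, cells of every group were treated for 16 h. Control groups received standard growth medium, and lean and obese groups received 50% growth medium and 50% secretome, which is what inguinal fat cells (adipocytes), here of a lean or obese origin, release into their medium. All growth medium was DMEM with 10% fetal bovine serum, and for all NMuMG groups the labels also give insulin (10 mcg/ml) and a glucose level (4.5 g/L), with neither stated for E0771. The species of the adipocytes is not given in the labels, and the labels do not say that replicates were separate cultures, so p-values measure the spread between these libraries, which may be technical. Lean and obese media held the same share of secretome and control medium none.

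Many amino acid carriers work as exchangers, which trade an amino acid for another, or as sodium-driven pumps, which raise the level inside the cell. Others work in neither way. Slc7a5 and Slc7a6 are light chains that reach the cell surface as a dimer with the heavy chain Slc3a2, and they exchange large neutral or cationic amino acids. Sodium-driven carriers such as Slc38a2 supply glutamine and other small neutral amino acids, which the exchangers can then trade. Many of these genes are known targets of ATF4, a transcription factor whose translation rises when cells lack amino acids or are under other stress, and several are high in tumours.

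Total counts per library ranged from 22929035 to 31094119 in E0771 and from 23966897 to 29686456 in NMuMG. Replicates within a group differed by more than counting error (2.3 to 8.44 times it, as chi-square over degrees of freedom). Both ends came from E0771 lean libraries: replicates 1 and 2 gave 2.3, and replicate 3 gave 8.44 and 8.16 against them. NMuMG had counts for 6 of 6 epithelial markers, though Epcam (mean 1.885 to 2.448 CPM by group) and Cldn4 (0.92 to 2.209) were low there too. In E0771 the keratin Krt8 had a mean of 235 to 254 CPM (a gene's counts divided by its library's total and scaled by a factor shared by all genes) by group, while Epcam was at 0.131 CPM or less in every library and 1 of 6 epithelial markers passed the filter on low counts. The summed level of 6 mesenchymal markers was 2182 to 2408 CPM in E0771 lean libraries, 3308 to 3621 in obese and 3747 to 3880 in control. In the NMuMG groups it was 2936 to 3058, 3453 to 3645 and 3491 to 3647 in the same order. The markers behind these sums differed in part between the lines. In E0771 Fn1 was at 0 in every library. Vim (mean 2024 CPM in lean, 2875 in obese) and Col1a1 (204 and 523) were lower in lean there. In NMuMG Fn1 (954 and 1371) and Vim (1774 and 1906) had lower means in lean, and Cdh2 a higher mean (273 and 247.5). The summed level of 6 epithelial markers was 7802 to 8081 CPM in NMuMG lean libraries, 6718 to 7016 in obese and 7106 to 7522 in control. Of 7 adipocyte markers Lep was at 0 in every library and Adipoq reached 0.118 CPM at most. Their summed level was 2.03 to 2.19 CPM in NMuMG lean libraries, 0.372 to 1.09 in NMuMG obese, 0.393 to 0.741 in NMuMG control and 0.751 to 1.61 in E0771. Most of the NMuMG sum was Cidec, at 2.00 to 2.08 CPM in lean, 0.289 to 0.96 in obese and 0.322 to 0.689 in control. Most of the E0771 sum was Fabp4, with a mean of 0.779 CPM in lean, 1.055 in obese and 0.86 in control. The part of these marker levels in the results below was not tested. E0771 lean replicate 3 was the highest of its group in 8 of 9 members tested. Over all genes tested in NMuMG, obese replicate 1 stood at -3.02 on the first principal component, the main axis along which libraries differ. The other obese libraries stood at -17.1 and -13.5 there, nearer to the control libraries (-19.4 to -18.6) and further from the lean libraries (26.8 to 34.1).

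Of the 10 members, 9 passed the filter on low counts in each fit. Slc43a1, a sodium-independent carrier of branched-chain and other large neutral amino acids, did not: it had 0 to 8 counts in every library, at most 0.334 CPM. Differences were tested with edgeR's quasi-likelihood F test over all genes that passed the filter, and a gene was called higher or lower at a Benjamini-Hochberg adjusted p under 0.05. In E0771, lean against obese secretome, 4 of 9 members were called, 2 higher and 2 lower, where 52.7% of all genes tested were called (25.8% higher and 26.9% lower). In NMuMG 7 of 9 were called, 3 higher and 4 lower, where 35% of all genes were (17.6% higher and 17.4% lower). Without regard to sign, the members' median log2 fold change was 0.112 in E0771, against 0.244 for all genes, and 0.302 in NMuMG, against 0.155 for all genes. Against control medium, lean secretome gave 7 of 9 members called in E0771 (2 higher, 5 lower, where 27.3% and 29% of all genes were, 56.3% in all) and 5 of 9 in NMuMG (3 higher, 2 lower, where 19.1% and 19.1% of all genes were, 38.2% in all). No library of one group reached into the range of the other for 4 of the 9 tested members in E0771 lean against obese (60.3% of all genes) and 6 lean against control (61.4%). In NMuMG this held for 6 (45.2%) and 6 (48%). The comparisons of lean with obese and of lean with control share the lean libraries.

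**Figure D1:**
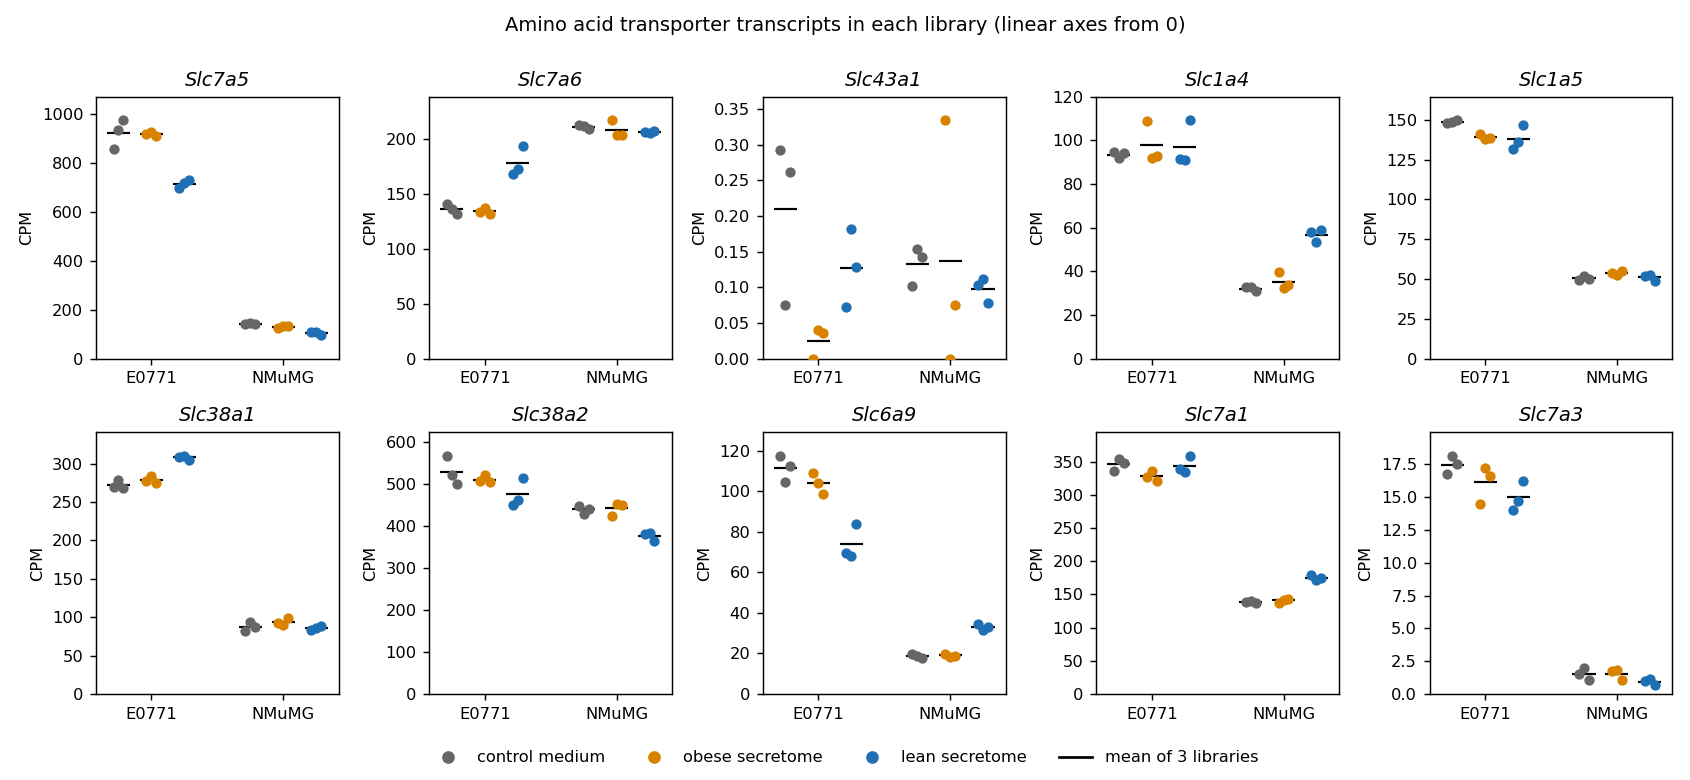
CPM of the 10 members in each of the 18 libraries, on linear axes from 0; each point is 1 library, coloured by medium, and each bar the mean of 3 libraries. Slc7a5 was lowest in the 3 lean libraries of both lines, while Slc6a9 was lowest in the lean libraries of E0771 and highest in those of NMuMG.

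Slc7a5, which brings leucine and other large neutral amino acids into the cell in exchange for glutamine, was lower in lean secretome in both lines. In E0771 it stood at 698, 717 and 731 CPM in the lean libraries, at 919, 928 and 912 in the obese libraries and at 859, 937 and 974 in the control libraries (replicates 1, 2 and 3). In NMuMG it stood at 110.0, 110.5 and 94.6 CPM in lean, at 125, 134 and 133 in obese and at 140.4, 147 and 139 in control. The lean libraries lay below all obese and control libraries of their line. The log2 fold change of Slc7a5 lean over obese was -0.37 (SE 0.0394, edgeR adjusted p = 2.97e-08) in E0771, 1.29-fold lower, and -0.33 (SE 0.0488, adjusted p = 1.2e-05) in NMuMG. Against control it was -0.38 (SE 0.0394, adjusted p = 1.48e-08) and -0.43 (SE 0.0484, adjusted p = 1.47e-07). The difference between the lines in the effect of lean over obese on Slc7a5 was 0.03 on the log2 scale (SE 0.0692, adjusted p = 0.874) and was not called.

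Slc7a6, which exchanges cationic amino acids for neutral amino acids and sodium, was higher in lean secretome in E0771. There it stood at 168, 172 and 194 CPM in the lean libraries, at 133, 137 and 132 in obese and at 141, 136 and 132 in control. In NMuMG it stood at 206, 205 and 207 CPM in lean, at 217, 204 and 203 in obese and at 213, 211 and 208 in control. The E0771 lean libraries lay above all others of that line, whereas the NMuMG lean libraries fell inside the range of the obese libraries and just below that of the control libraries. Slc7a6 rose in E0771 by 0.41 on the log2 scale lean over obese (SE 0.0466, edgeR adjusted p = 9.24e-08) and by 0.38 over control (SE 0.0467, adjusted p = 2.36e-07). In NMuMG the log2 fold changes were -0.03 (adjusted p = 0.599) and -0.03 (adjusted p = 0.516), not called. The 2 lines differed in the effect of lean over obese on Slc7a6 by -0.45 (NMuMG minus E0771, SE 0.0586, adjusted p = 6.31e-08).

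Slc3a2, the heavy chain that both exchangers need, is not a member but bears on them. Its mean was 369 ± 17.5 CPM in lean, 381 ± 5.71 in obese and 380 ± 23.0 in control E0771 libraries (SD, n = 3). In NMuMG it was 386 ± 12.4 CPM in lean, 217 ± 22.4 in obese and 201 ± 5.01 in control (SD, n = 3), and the lean libraries lay above all others. Slc3a2 rose in NMuMG by 0.82 on the log2 scale lean over obese (SE 0.0654, edgeR adjusted p = 5.78e-06), while in E0771 the change was -0.05 (adjusted p = 0.307). The lines differed by 0.85 (adjusted p = 7.35e-08). In NMuMG the light chain Slc7a5 was thus lower and the heavy chain higher in the same 3 lean libraries.

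To compare levels between genes, counts were divided by exon length and library total (RPKM). Among the 6 light chains that pair with Slc3a2 (Slc7a5, Slc7a6, Slc7a7, Slc7a8, Slc7a10 and the cystine carrier Slc7a11, a list chosen after values were seen), Slc7a5 held a mean of 88.2% of the summed RPKM in E0771 control libraries, 88.3% in obese and 81.9% in lean (81% to 82.4%). Slc7a6 held 10.6%, 10.4% and 16.5% in the same order. In NMuMG Slc7a5 held 43.4% in control, 41% in obese (38.2% to 42.5%) and 33% in lean (30.3% to 34.6%), while Slc7a6 held 52.2%, 52.8% and 52.5%. Slc7a11 held 1.02% in NMuMG control, 2.92% in obese (1.78% to 4.6%) and 10.7% in lean libraries (9.58% to 11.7%), and 0.47% or less on average in each E0771 group. The summed RPKM of the light chains was 88.4 ± 1.39 in NMuMG control, 86 ± 1.85 in obese and 85.9 ± 1.65 in lean, and 282 ± 14.9, 281 ± 2.95 and 236 ± 7.47 in E0771 (SD, n = 3). These shares are descriptions and were not tested. Shares were also taken with the longest coding transcript as the length, a check added after the data were seen. Slc7a11 then held 13.4% in NMuMG lean and 1.33% in control libraries. Slc7a5 held 39.5% in NMuMG control, 37% in obese and 28.8% in lean, and Slc7a6 54.9%, 55.2% and 53.1%. In E0771 Slc7a5 held 86.4%, 86.4% and 79.4% in the same order, and Slc7a6 12%, 11.8% and 18.5%.

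**Figure D2:**
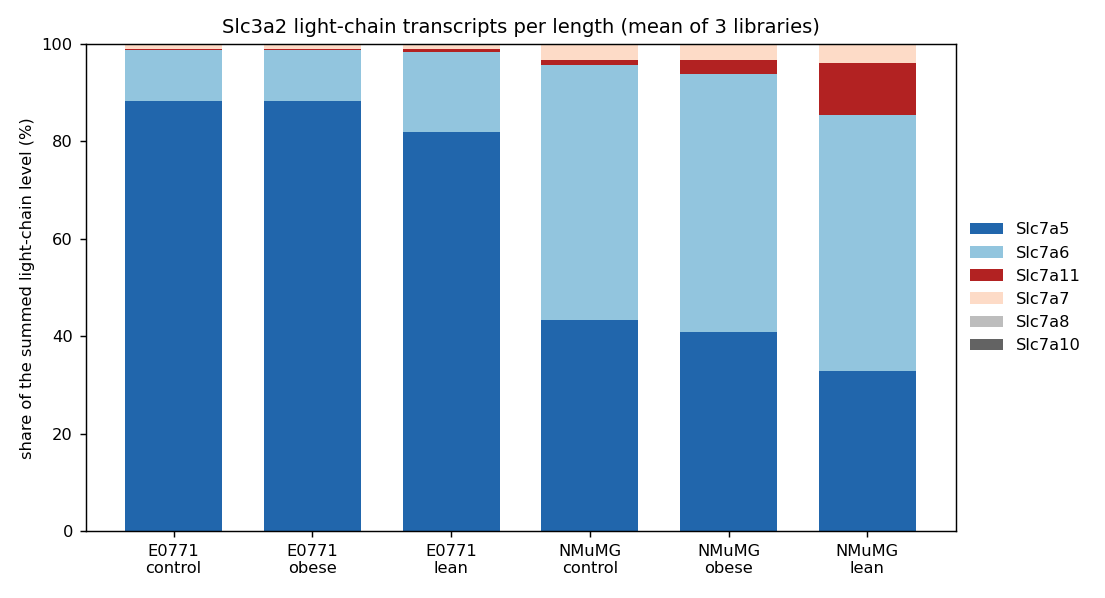
Mean share of each light chain in the summed RPKM of the 6 light chains that pair with Slc3a2, in percent, stacked by line and medium (n = 3 libraries per bar). The Slc7a5 share was 88.2% in E0771 control and 33% in NMuMG lean libraries, where the Slc7a11 share was 10.7%.

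Slc1a4 and Slc1a5 exchange alanine, serine, cysteine and, for Slc1a5, glutamine. Slc1a4 was higher in lean secretome in NMuMG, where it stood at 57.9, 53.5 and 59.0 CPM in lean, at 39.9, 32.3 and 33.7 in obese and at 32.6, 32.7 and 30.9 in control libraries. In E0771 it stood at 91.4, 90.9 and 109 CPM in lean, at 109, 91.9 and 92.9 in obese and at 94.5, 91.8 and 94.3 in control. The NMuMG lean libraries lay above all others of the line, while the E0771 groups overlapped. Slc1a4 rose in NMuMG 1.6-fold lean over obese (log2 fold change 0.68, SE 0.0618, edgeR adjusted p = 8.97e-10) and 1.78-fold over control (0.83, SE 0.0616, adjusted p = 7.61e-12). In E0771 its log2 fold changes were -0.02 (SE 0.0738, adjusted p = 0.875) and 0.04 (adjusted p = 0.635), and the lines differed by 0.67 lean over obese (SE 0.118, adjusted p = 0.000184).

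Slc1a5, the main glutamine exchanger of many tumour cells, was not called lean over obese in either line. It stood at 132, 136 and 147 CPM in lean, 141, 138 and 138 in obese and 148, 149 and 149.7 in control E0771 libraries. In NMuMG it stood at 51.9, 52.5 and 48.6 CPM in lean, 53.7, 52.3 and 54.9 in obese and 49.6, 51.8 and 50.2 in control. Lean and obese libraries overlapped in both lines. The log2 fold changes of Slc1a5 lean over obese were -0.02 (SE 0.0422, edgeR adjusted p = 0.765) in E0771 and -0.09 (SE 0.048, adjusted p = 0.171) in NMuMG. Against control it was lower in E0771 (log2 fold change -0.12, SE 0.0421, adjusted p = 0.0201) with no overlap of libraries, and that call was lost without control replicate 3 (adjusted p = 0.0813), lean replicate 1 (0.127) or lean replicate 2 (0.0672), and with only the groups compared in the fit (0.0501). The difference between the lines in lean over control was 0.11 for Slc1a5 (adjusted p = 0.191), and came under the threshold without E0771 lean replicate 3 (0.045) or NMuMG lean replicate 3 (0.0372).

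Slc38a1 and Slc38a2 are sodium-driven pumps for glutamine, alanine and other small neutral amino acids. Slc38a1 stood at 309, 310.2 and 305 CPM in lean, 278, 284 and 275 in obese and 270.2, 278 and 269 in control E0771 libraries. In NMuMG it stood at 83.2, 86.1 and 88.3 CPM in lean, 91.8, 90.01 and 99.0 in obese and 82.0, 93.7 and 87.4 in control. In E0771 the lean libraries lay above all others, and in NMuMG they lay below the obese libraries but within the control range. Slc38a1 rose in E0771 by 0.14 on the log2 scale lean over obese (SE 0.0356, edgeR adjusted p = 0.00194) and by 0.17 over control (SE 0.0356, adjusted p = 0.000297), and it fell in NMuMG lean over obese, log2 fold change -0.14 (SE 0.0458, adjusted p = 0.0173). The NMuMG call was lost without lean replicate 1 (adjusted p = 0.082) or obese replicate 3 (0.169). The lines differed by -0.29 for Slc38a1 (SE 0.0587, adjusted p = 9.53e-05).

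Slc38a2, which cells are known to raise when amino acids run short, stood at 380.3, 383 and 366 CPM in lean, 424, 453 and 450.1 in obese and 449, 430 and 441 in control NMuMG libraries. In E0771 it stood at 451, 463 and 515 CPM in lean, 507, 522 and 505 in obese and 568, 522 and 501 in control. The NMuMG lean libraries lay below all others, while in E0771 the groups overlapped through lean replicate 3. Slc38a2 fell in NMuMG, log2 fold change -0.25 lean over obese (SE 0.0332, edgeR adjusted p = 3.12e-07) and -0.22 over control (SE 0.0332, adjusted p = 1.43e-06). In E0771 it was -0.11 lean over obese (SE 0.0471, adjusted p = 0.0603), which became -0.16 (adjusted p = 0.00157) without lean replicate 3, and came under the threshold with no filter on low counts (0.023) or with only the groups compared in the fit (0.0422). Over control it was -0.17 in E0771 (SE 0.0471, adjusted p = 0.00488). The difference between the lines lean over obese was -0.16 (SE 0.0582, adjusted p = 0.0353) and was lost in 6 of the fits that left out a library: E0771 lean replicate 3 (-0.10, adjusted p = 0.157), E0771 obese replicates 1 and 3 (0.0587 and 0.0698), NMuMG lean replicate 3 (0.212) and NMuMG obese replicates 2 and 3 (0.0763 and 0.0756). DESeq2 (0.0891) and DESeq2 size factors in edgeR (0.0647) also gave no call for Slc38a2.

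Slc6a9, a sodium- and chloride-driven glycine carrier, moved in opposite directions in the 2 lines. In E0771 it stood at 69.6, 67.9 and 83.9 CPM in lean, at 109, 104 and 98.8 in obese and at 118, 105 and 112 in control libraries. In NMuMG it stood at 34.5, 31.8 and 32.9 CPM in lean, at 19.8, 18.5 and 18.9 in obese and at 19.5, 18.9 and 17.7 in control. The lean libraries did not overlap with the others in either line, below them in E0771 and above them in NMuMG. Slc6a9 was 1.41-fold lower lean over obese in E0771 (log2 fold change -0.50, SE 0.0697, edgeR adjusted p = 1.68e-05) and 1.72-fold higher in NMuMG (0.78, SE 0.0641, adjusted p = 9.55e-12). Against control the log2 fold changes were -0.60 (SE 0.0696, adjusted p = 1.77e-06) and 0.82 (SE 0.0633, adjusted p = 1.04e-12). The lines differed by 1.27 lean over obese (SE 0.0937, adjusted p = 1.33e-12).

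Slc6a9 shares exonic bases with 3 genes on the opposite strand in the annotation used for names: Ccdc24 (1429 bases), Gm17114 (511) and B4galt2 (46). Libraries were directional, but the strand setting of the counting is not given in the sources used here, so reads of Slc6a9 and of these genes may not be separated. Ccdc24 had 20 to 58 counts in E0771 and 1 to 6 in NMuMG libraries, and Gm17114 had 0 to 2 in each line, against 1873 to 3221 and 447 to 1003 for Slc6a9. B4galt2, with the shortest overlap, had 1229 to 1531 counts in E0771 and 202 to 262 in NMuMG. Its part in the values of Slc6a9 was not tested. No other member overlapped an exon of another gene.

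Slc7a1 and Slc7a3 carry arginine, lysine and ornithine. Slc7a1 stood at 179, 171 and 175 CPM in lean, 137, 142 and 144 in obese and 139, 139.5 and 137 in control NMuMG libraries. In E0771 it stood at 338, 335 and 359 CPM in lean, 327, 336 and 320.4 in obese and 336, 354 and 349 in control. The NMuMG lean libraries lay above all others and the E0771 lean libraries overlapped with both other groups. Slc7a1 rose in NMuMG 1.23-fold lean over obese (log2 fold change 0.30, SE 0.0349, edgeR adjusted p = 1.56e-08) and 1.27-fold over control (0.34, SE 0.0347, adjusted p = 5.38e-10). In E0771 the log2 fold changes were 0.06 (SE 0.0378, adjusted p = 0.161) and -0.02 (adjusted p = 0.651), and the lines differed by 0.22 lean over obese (SE 0.0517, adjusted p = 0.000663).

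Slc7a3, the less abundant cationic carrier, stood at 14.1, 14.7 and 16.2 CPM in lean, 14.5, 17.3 and 16.7 in obese and 16.8, 18.2 and 17.5 in control E0771 libraries. In NMuMG it stood at 0.998, 1.11 and 0.704 CPM in lean, 1.71, 1.82 and 1.09 in obese and 1.55, 1.95 and 1.04 in control. Lean and obese libraries overlapped in both lines. Slc7a3 lean over obese was -0.71 on the log2 scale in NMuMG (SE 0.28, edgeR adjusted p = 0.0455), a call lost without lean replicate 1 (adjusted p = 0.0711), lean replicate 3 (0.182), obese replicate 1 (0.124) or obese replicate 2 (0.173) and in DESeq2 (0.0776). In NMuMG lean over control it was -0.67 (SE 0.276, adjusted p = 0.0522), and called without control replicate 3 (0.0163) or lean replicate 2 (0.0459) or with only the groups compared in the fit (0.0447). In E0771 it was -0.11 lean over obese (adjusted p = 0.273) and -0.23 lean over control (SE 0.083, adjusted p = 0.021), the latter lost without control replicate 2 (0.0826), control replicate 3 (0.0622), lean replicate 1 (0.0918) or lean replicate 2 (0.0591). The difference between the lines in Slc7a3 was -0.61 lean over obese (adjusted p = 0.0673), called without NMuMG lean replicate 2 (0.0484) or obese replicate 3 (0.0161), and -0.46 lean over control (adjusted p = 0.172), called without NMuMG control replicate 3 (0.0415).

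**Figure D3:**
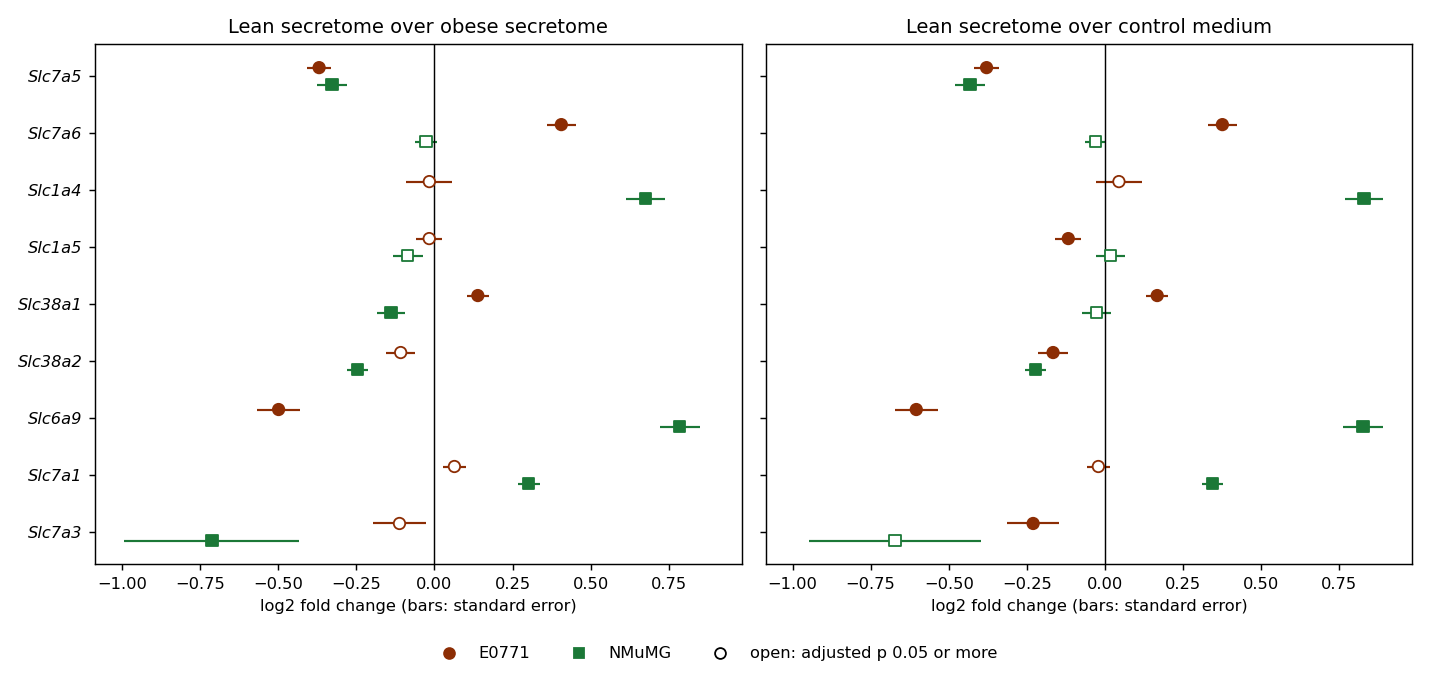
Log2 fold change of each tested member in lean over obese secretome (left) and in lean secretome over control medium (right); circles are E0771, squares NMuMG, bars the standard error, and open symbols an adjusted p of 0.05 or more. Slc7a5 lies below 0 in both lines in each panel, and Slc6a9 lies below 0 in E0771 and above 0 in NMuMG.

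Slc1a4, Slc6a9 and Slc7a1 rose together in NMuMG, so their promoter windows are shown. Windows span 250 bases before to 50 bases after a transcription start in RefSeq on GRCm38.p6, which held 10 windows of 6 of the 10 members. They were searched on both strands for TGATGNAA, the core of the C/EBP-ATF element that ATF4 can bind, and for the E-box CACGTG. TGATGNAA occurs in 3.97% of 32841 windows and CACGTG in 7.15%. Among the members' windows Slc1a4 held TGATGNAA, read on the opposite strand and in capitals here, and Slc43a1 held CACGTG, while no other of the 10 windows held either. A match is a description of these letters, and the absence of a match says only that they are not in these windows.
Slc1a4, chr11:20332664-20332963, minus strand: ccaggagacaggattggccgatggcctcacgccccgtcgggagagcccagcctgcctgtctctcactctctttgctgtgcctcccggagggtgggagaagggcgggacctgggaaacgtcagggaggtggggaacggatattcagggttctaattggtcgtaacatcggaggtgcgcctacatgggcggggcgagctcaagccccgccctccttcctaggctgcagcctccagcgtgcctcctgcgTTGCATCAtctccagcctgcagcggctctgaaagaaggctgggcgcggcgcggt
Slc6a9, first of 3 windows, chr4:117835008-117835307, plus strand: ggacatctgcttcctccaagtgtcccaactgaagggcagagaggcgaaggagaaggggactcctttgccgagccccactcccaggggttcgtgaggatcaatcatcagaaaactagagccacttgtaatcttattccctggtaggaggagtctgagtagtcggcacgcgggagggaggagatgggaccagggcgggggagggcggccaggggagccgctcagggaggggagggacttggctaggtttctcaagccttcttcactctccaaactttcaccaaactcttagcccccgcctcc
Slc7a1, first of 2 windows, chr5:148399855-148400154, minus strand: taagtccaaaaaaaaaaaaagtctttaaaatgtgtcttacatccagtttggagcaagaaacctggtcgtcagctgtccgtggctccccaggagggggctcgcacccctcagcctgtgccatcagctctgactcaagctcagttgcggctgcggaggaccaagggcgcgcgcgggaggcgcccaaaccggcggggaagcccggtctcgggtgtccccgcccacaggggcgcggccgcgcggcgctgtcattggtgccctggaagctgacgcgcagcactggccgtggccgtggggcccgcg

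No tested member was called between obese secretome and control medium in either line. In E0771 0 of 9 members were called by edgeR obese over control (2.61% of all genes tested), with 2 at an unadjusted p under 0.05 (15.4% of all genes), and 0 by DESeq2. In NMuMG 0 of 9 were called by edgeR (5.01% of all genes), with 4 at an unadjusted p under 0.05 (16.6% of all genes), and 0 by DESeq2. The log2 fold changes ran from -0.12 to 0.06 in E0771 and from -0.11 to 0.15 in NMuMG. Libraries did not overlap for 2 members in E0771, Slc7a1 and Slc1a5, both lower in obese (21.5% of all genes did not overlap), and for 2 in NMuMG, Slc7a5, lower, and Slc1a5, higher (21.3% of all genes). The largest value in NMuMG, 0.15 for Slc1a4, ran from 0.0539 without obese replicate 1 (adjusted p = 0.784) to 0.21 without obese replicate 2, where it was called (adjusted p = 0.0464). The lines differed in obese over control for 0 of 9 members by edgeR (1.69% of all genes), with 2 at an unadjusted p under 0.05 (13.2% of all genes), and 0 by DESeq2. The all-gene counts behind these shares moved with single libraries. The 360 genes called in E0771 fell to 79 and 110 on leaving out control replicate 1 or 2, and to 192 and 89 on leaving out obese replicate 1 or 3. They rose to 498 without control replicate 3 and to 376 without obese replicate 2. The 752 called in NMuMG fell to 384, 465 and 507 on leaving out control replicate 1, 2 or 3, and to 490 and 482 on leaving out obese replicate 1 or 3. They rose to 893 without obese replicate 2. The 279 that differed between the lines ran from 149 to 360 when 1 library was left out.

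Between the lines, the effect of lean over obese differed for 6 of 9 members (34.2% of all genes), 3 upwards and 3 downwards in NMuMG minus E0771 (15.5% and 18.8% of all genes). It was more positive in NMuMG for Slc6a9, Slc1a4 and Slc7a1, and more negative for Slc7a6, Slc38a1 and Slc38a2. The effect of lean over control differed for 5 of 9 (34.5% of all genes), 3 upwards and 2 downwards (15.1% and 19.4%). There the differences (NMuMG minus E0771) were 1.40 for Slc6a9 (SE 0.0929, edgeR adjusted p = 8.69e-14), 0.76 for Slc1a4 (SE 0.118, adjusted p = 5.67e-05), 0.34 for Slc7a1 (SE 0.0515, adjusted p = 1.13e-06), -0.43 for Slc7a6 (SE 0.0585, adjusted p = 1.2e-07) and -0.22 for Slc38a1 (SE 0.0587, adjusted p = 0.00267). The labels give insulin and a glucose level for the medium of NMuMG alone, so effects of line and medium cannot be told apart.

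**Figure D4:**
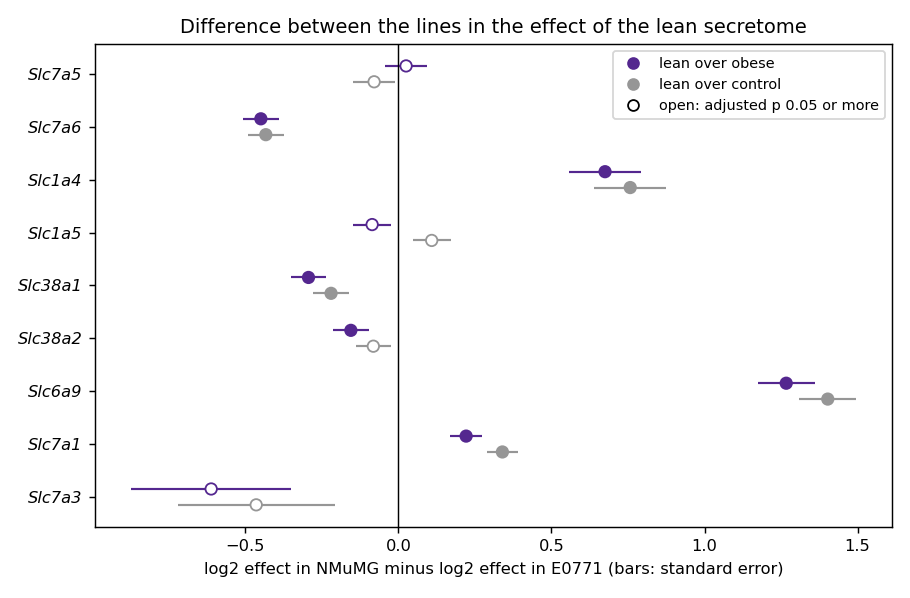
Difference between the lines in the log2 fold change of lean over obese and lean over control (NMuMG minus E0771) for each tested member, with the standard error as a bar; open symbols have an adjusted p of 0.05 or more. Slc6a9 has the largest difference among the members, 1.27 lean over obese, and Slc7a6 the lowest called value, -0.45.

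In control medium the lines themselves differed in 9 of 9 members, 1 higher and 8 lower in NMuMG, where 80.5% of all genes were called (43.4% higher and 37.1% lower). Slc7a3 was 10.7-fold lower in NMuMG, Slc7a5 6.01-fold (log2 fold change -2.59, SE 0.0506, edgeR adjusted p = 5.11e-27), Slc6a9 5.51-fold, Slc38a1 2.88-fold, Slc1a5 2.73-fold, Slc1a4 2.7-fold and Slc7a1 2.32-fold. Slc38a2 was lower by a log2 fold change of -0.16 (adjusted p = 0.000652), and the libraries of no tested member overlapped between the lines (82.7% of all genes did not). Slc7a6 was the exception, 1.67-fold higher in NMuMG (log2 fold change 0.74, SE 0.0418, adjusted p = 1.03e-19). The median log2 fold change was -1.45 over the members and 0.0766 over all genes.

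Per length, Slc7a5 led in untreated E0771 with 249 ± 16 RPKM, followed by Slc38a2 with 60 ± 3.9, Slc1a5 with 35.7 ± 0.23, Slc7a1 with 30 ± 0.8 and Slc7a6 with 29.8 ± 1 (SD, n = 3). The libraries of Slc7a1 and Slc7a6 overlapped. Slc1a4 (23.8 RPKM), Slc6a9 (21.7), Slc38a1 (15.8), Slc7a3 (4.62) and Slc43a1 (0.0366) came after them. In untreated NMuMG Slc38a2 led with 49.8 ± 1.1 RPKM, then Slc7a6 with 46.1 ± 0.49 and Slc7a5 with 38.4 ± 1.1 (SD, n = 3). Slc1a5 (12.1 RPKM) and Slc7a1 (12) overlapped, and Slc1a4 (8.17), Slc38a1 (5.09), Slc6a9 (3.64), Slc7a3 (0.4) and Slc43a1 (0.0232) were lower. The middle of the order depends on the length used: with the longest coding transcript Slc38a1 moved from rank 8 to 5 and Slc1a4 from 6 to 8 in E0771, while the first 4 places stayed. The levels moved too: Slc38a2 from 60 to 114 RPKM and Slc38a1 from 15.8 to 37.5 in E0771, and Slc38a2 from 49.8 to 94.4 and Slc38a1 from 5.09 to 12.1 in NMuMG. For Slc7a1 they were 48.3 and 19.3 RPKM by that length in E0771 and NMuMG, and for Slc1a5 53.8 and 18.3.

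A list of 51 other amino acid transporters was written with earlier results of these data known. In E0771 21 of them were tested and 14 were called lean over obese, 10 higher and 4 lower (all genes: 52.7%, 25.8% higher and 26.9% lower). In NMuMG 29 were tested and 15 were called, 12 higher and 3 lower (all genes: 35%, 17.6% and 17.4%). The list's median log2 fold change was 0.0976 in E0771 and 0.108 in NMuMG, against 0.00347 and -0.00232 for all genes. The rises in E0771 were led by the cystine carrier Slc7a11 (0.86, edgeR adjusted p = 5.59e-06), the lysosomal histidine and peptide carrier Slc15a4 (0.47, adjusted p = 7.85e-07) and the lysosomal arginine sensor Slc38a9 (0.42, adjusted p = 0.000536). The falls there were led by Slc43a2 (-0.36, adjusted p = 3.25e-05), a large neutral amino acid carrier, Slc38a10 (-0.35, adjusted p = 2.75e-07) and the light chain Slc7a7 (-0.26, adjusted p = 0.0486).

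The call of Slc7a7 in E0771 was lost in DESeq2 (adjusted p = 0.0802), with DESeq2 size factors in edgeR (0.0511) and with no filter on low counts (0.0516). It was also lost without lean replicate 1 (0.0603), 2 (0.0932) or 3 (0.104), or obese replicate 2 (0.221) or 3 (0.116).

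In NMuMG the rises were led by Slc7a11 (1.85, edgeR adjusted p = 0.00492), Slc3a2 and Slc7a4 (0.63, adjusted p = 0.000231), and the falls by the aromatic amino acid carrier Slc16a10 (-0.32, adjusted p = 4.09e-05) and the mitochondrial ornithine carrier Slc25a15 (-0.26, adjusted p = 0.000296). Slc7a11 was at 115 to 137 CPM in NMuMG lean libraries, 21.0 to 56.5 in obese and 11.8 to 13.1 in control. The difference between the lines in Slc7a11 lean over obese was 0.96 (adjusted p = 0.112), not called by edgeR, but called by DESeq2 (0.0375) and by edgeR without NMuMG obese replicate 1 (1.48, adjusted p = 0.00011). Obese over control, 0 of 21 of the listed transporters were called by edgeR in E0771 (2.61% of all genes) and 4 of 29 in NMuMG (5.01% of all genes), all 4 lower. The NMuMG count was 2 without obese replicate 3 and up to 6 without another library (obese replicate 2).

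Many of the members are known ATF4 targets, so ATF4 and 29 of its other known targets (30 genes in all) are given beside them. This list was written with earlier results of these data known. In E0771 27 were tested and 23 were called lean over obese, 1 higher and 22 lower (all genes: 52.7%, 25.8% higher and 26.9% lower), with a median log2 fold change of -0.464 against 0.00347 for all genes. In NMuMG 30 were tested and 19 were called, 7 higher and 12 lower (all genes: 35%, 17.6% and 17.4%), with a median of -0.0621 against -0.00232. Atf4 itself fell in both lines, by log2 fold changes of -0.70 in E0771 (edgeR adjusted p = 4.63e-13) and -0.27 in NMuMG (adjusted p = 1.44e-07), as did the asparagine synthetase gene Asns (-0.35, adjusted p = 8.58e-08, and -0.17, adjusted p = 0.000915). The pseudokinase gene Trib3 fell in E0771 (-0.62, adjusted p = 6.41e-10) and rose in NMuMG (0.56, adjusted p = 5.68e-05), with a difference between the lines of 1.15 (adjusted p = 1.93e-11). The glutathione-degrading enzyme gene Chac1 fell in E0771 (-1.31, adjusted p = 3.93e-08) and was at 0.19 in NMuMG (adjusted p = 0.282), and the lines differed by 1.49 (adjusted p = 2.12e-07). The transcription factor gene Ddit3 was at -0.03 in E0771 (adjusted p = 0.879) and rose in NMuMG by 0.45 (adjusted p = 0.000447). The effect differed between the lines in 20 of 30 genes (34.2% of all genes), 18 of them more positive in NMuMG (15.5% of all genes).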

How the data were processed

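Poly(A) RNA of 9 E0771 and 9 NMuMG libraries was analysed; 12 human libraries of the series were not used. The authors deposited raw counts per Ensembl gene ID, checked to be whole numbers. The submitters' processing notes name cutadapt 1.16, STAR 2.7.9a, featureCounts 1.6.3 and GRCm39, with no role; strand setting and annotation release are not given in the sources used here. Symbols came from GENCODE M21 (52073 of 56980 IDs, 99.68% of counts), used for names, exon lengths and overlaps.

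Each line was fitted alone in edgeR 4.0.16 (R 4.3.3) with filterByExpr (13813 genes left in E0771, 15014 in NMuMG), TMM factors (0.987 to 1.01) and a robust quasi-likelihood F test. P-values were adjusted by Benjamini-Hochberg over all genes and called under 0.05. Differences between lines, and the lines in control medium, came from 1 fit of 6 groups (16529 genes). The same steps were also run on simulated counts for lean over obese, in which 200 genes per line had a known change. Of 50 genes changed 1.25-fold, 54% were recovered in each line, so changes of this size can be missed at that setting. The simulation changed 200 of 13813 genes in E0771 and 200 of 15014 in NMuMG, while 52.7% and 35% were called in the data. The adjustment of p-values depends on that share, so the simulated rates need not hold for the data. At 1.5-fold 74% were recovered in E0771 and 70% in NMuMG, and at 2-fold 88% in each line. False calls stood at 6.75% in E0771 and 8.43% in NMuMG, above the rate set by the threshold of 0.05. Each came from 1 simulated draw, which cannot tell an excess over the threshold from the spread between draws. Intervals from reads cover counting error and replicate spread only, since there were no molecular identifiers.

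Members, gene lists and the rule for named genes were chosen with earlier results of these data known. The rule took every member, Slc3a2, Slc7a11, Atf4, Ddit3, Trib3, Asns, Chac1 and, per line, the 3 largest called increases and decreases of other transporters whose mean log2 CPM reached 2; only 2 decreases qualified in NMuMG. Alternatives were DESeq2 1.42.0, its size factors, no filter, only the groups compared, a replicate block and leaving out each library.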

Additional observations from a re-analysis of the deposited data

Results flagged for a closer look

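For 6 members the effect of lean over obese secretome differed between the lines by the interaction test in edgeR (NMuMG minus E0771, log2), where 34.2% of all genes did. The difference was 1.27 for Slc6a9 (SE 0.0937, adjusted p = 1.33e-12), which was higher in 3 of 3 NMuMG lean libraries than in any obese library and lower in 3 of 3 E0771 lean libraries. It was 0.67 for Slc1a4 (SE 0.118, adjusted p = 0.000184) and 0.22 for Slc7a1 (SE 0.0517, adjusted p = 0.000663). It was -0.45 for Slc7a6 (SE 0.0586, adjusted p = 6.31e-08), -0.29 for Slc38a1 (SE 0.0587, adjusted p = 9.53e-05) and -0.16 for Slc38a2 (SE 0.0582, adjusted p = 0.0353). The Slc38a2 call was lost in 9 of 17 alternatives, among them the fit without E0771 lean replicate 3 (-0.10, adjusted p = 0.157).

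For lean secretome over control medium 5 of these differed, where 34.5% of all genes did: Slc6a9 by 1.40 (SE 0.0929, adjusted p = 8.69e-14), Slc1a4 by 0.76 (SE 0.118, adjusted p = 5.67e-05), Slc7a1 by 0.34 (SE 0.0515, adjusted p = 1.13e-06), Slc7a6 by -0.43 (SE 0.0585, adjusted p = 1.2e-07) and Slc38a1 by -0.22 (SE 0.0587, adjusted p = 0.00267). Both sets share the lean libraries.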

How the results depend on the processing

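Over 999 values of a member in a comparison under an alternative, 940 kept their direction and their side of the threshold, 24 lost the call, 14 gained it and 21 changed direction. Of 43 called values 38 were kept under every alternative; the other 5 were Slc7a3 and Slc1a5 in E0771 lean over control, Slc7a3 and Slc38a1 in NMuMG lean over obese, and the difference between lines in Slc38a2. Each change of direction came in a value not called, when 1 library was left out, and the cause was not tested. Leaving out each library in turn, log2 values ran, in E0771 lean over obese, from -0.11 to 0.064 for Slc1a4, -0.0591 to 0.0158 for Slc1a5 and -0.13 to 0.0487 for Ddit3; in E0771 lean over control from -0.0447 to 0.0895 for Slc1a4 and -0.0923 to 0.00781 for Slc3a2; and in E0771 obese over control from -0.0606 to 0.0435 for Slc7a5 and -0.0249 to 0.12 for Slc1a4. In NMuMG they ran from -0.0447 to 0.0107 for Slc7a6 lean over obese, from -0.00893 to 0.0537 for Slc1a5 and -0.0762 to 0.0242 for Slc38a1 lean over control, and from -0.17 to 0.25 for Slc7a3 and -0.0391 to 0.0127 for Slc7a6 obese over control. The difference between lines in Slc7a5 ran from -0.0152 to 0.12 lean over obese and from -0.12 to 0.018 lean over control. The number of members called obese over control in NMuMG was 0 to 1 when a library was left out, the 1 being Slc1a4 without obese replicate 2. Other counts of called members stayed within 1.5 times: 4 to 5 and 5 to 7 in E0771 and 5 to 7 and 5 to 6 in NMuMG (lean over obese, lean over control). Depth limits Slc43a1, not tested, and Slc7a3 in NMuMG.

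The replicate numbers are not known to pair the libraries. Deviations from the group means correlated, between libraries that share a number, from -0.0942 to 0.11 in E0771 and from -0.0285 to 0.0251 in NMuMG. These ranges cover 9 pairs each, and 5 of 9 and 4 of 9 libraries correlated best with their own number. In E0771 the pairs of control and obese libraries stood at 0.11, 0.0466 and 0.0601. Those of control and lean libraries stood at -0.0942, -0.0132 and -0.0585. Such weak correlations cannot exclude a pairing. With the replicate block 7150 genes in place of 7275 were called in E0771 lean over obese and 5190 in place of 5261 in NMuMG. Among members the block moved the calls of Slc7a3 in NMuMG lean over control (adjusted p = 0.0327), of the difference between lines in Slc7a3 (0.0225) and in Slc38a2 (0.0674) lean over obese; outside the members it moved Slc7a7 in E0771 (0.0584).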
